A study of Mus musculus with 4 samples.

Results

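The cells described here were the fibroblasts of the feeder layer that lay under set limits for stress, interferon and division genes in single-cell libraries of mouse spermatogonial cultures. A barcode was a member when it held 401 to 3999 genes with under 10% mitochondrial UMIs (unique molecular identifiers, 1 per captured transcript), when the UMIs of Col1a1, Col1a2, Sparc and Dcn summed to at least 2 and exceeded the sum of the germ cell genes Dazl, Tex15, Stk31 and Epcam, and when 4 further limits were met. Mt1 and Mt2 had to be under 1% and Malat1 and Neat1 under 8% of the UMIs. The sum of Ifit1, Ifit3, Isg15 and Cxcl10 had to be under 3, as did the sum of Mki67, Top2a, Ube2c, Cdc20, Ccnb1, Cenpf, Pclaf and Rrm2. These limits selected 4680 of 24278 barcodes, with 1726 in vehicle 1, 1833 in vehicle 2 and 1121 in EV 1. They are called baseline fibroblasts below. The measured values of the rule genes chose them, so that levels of these genes are given as a description.

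Cultures started from the testes of 3 male mice at postnatal day 6, whose Thy1-positive cells had been captured on magnetic columns and seeded on STO cells. Cultures received PBS (vehicle) or extracellular vesicles (EVs) that had been prepared from testes of mice at postnatal day 7, at 1 μg/ml for 3 days. Titles of the samples name 2 biological replicates per arm, which the study calls independent samples, and the strain of these pups is not given in the sources used here. The methods of the study name C57/BL6 males as the source of the EVs. Expression was read from 3 libraries, while EV 2, with 6794 barcodes, was not analysed here for expression, so that the difference between arms has no replicate check in the EV arm and no test across samples was made.

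STO is an established line of mouse embryonic fibroblasts that is arrested in division and then used to support stem cells in culture. Fibroblasts build and remodel the extracellular matrix, secrete growth factors such as GDNF, which maintains spermatogonial stem cells, and respond to serum, hypoxia and cytokines with well-known groups of genes. Fos and Egr1, for instance, are transcribed within minutes of a growth signal, and metallothioneins bind zinc and other metals.

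Among the rule genes, whose presence was fixed by the selection, Dcn, a small collagen-binding proteoglycan, stood at 1827, 1788 and 1381 CPM, Sparc, a matrix-binding glycoprotein, at 298, 306 and 329 CPM and Col1a1, a chain of type I collagen, at 152, 142 and 127 CPM, in counts per 1000000 UMIs (CPM) of the summed baseline cells of vehicle 1, vehicle 2 and EV 1 in this order. The label was held against fibroblast genes outside the rule. Fn1 (fibronectin) reached 1120.0, 1156 and 1039.8 CPM and Vim (vimentin) 2002, 2048 and 2660.0 CPM. Fbln2 reached 307, 322 and 348 CPM and Pdgfra 164, 164 and 103 CPM. Not every fibroblast marker was abundant, and Pdgfrb was at 13.2, 13.2 and 5.24 CPM. Of the 18 genes on the list of fibroblast markers, which includes 4 rule genes, 16 had enough UMIs to be measured for a ratio between arms. Markers of the other somatic cells of the testis were low, apart from Sox9. The summed level of 9 macrophage markers was 14.1, 15.1 and 45.6 CPM, with Mrc1 at 2.96, 3.46 and 22.5 CPM and Cd68 at 6.06, 6.92 and 17.3 CPM as the main sources, that of 6 endothelial markers was 6.48, 4.20 and 5.86 CPM and that of 6 Leydig cell markers 3.66, 3.21 and 2.16 CPM. Sertoli cell markers summed to 358, 374 and 341 CPM, of which Sox9 alone gave 301, 318 and 302 CPM, and 6 peritubular myoid markers to 28.8, 27.0 and 21.6 CPM. The 4 Y-linked genes gave 4.65 and 2.96 CPM in the vehicle libraries and no UMI in EV 1, where 3 counts would be 0.925 CPM. Csf1r, which defines macrophages, was at 0.282, 0.864 and 2.16 CPM and Ptprc, which marks leukocytes, at 0.846, 0.617 and 0.925 CPM. The part of such cells in the differences below was not tested.

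Some material from germ cells was present in the barcodes. A UMI of a germ gene of the rule was found in 11.9% and 10.6% of the vehicle baseline cells and in 1.52% of those of EV 1, in which germ cells themselves numbered 242 against 4854 and 5264. For 8 germ genes outside the rule, the summed level in baseline cells was 3.52%, 2.82% and 1.91% of that in the germ cells of the same library. The baseline cells of EV 1 were also shallower, with a median of 2631 UMIs and 1335 genes per cell against 3762.5 and 4024 UMIs and 1791.5 and 1905 genes. Their summed depth was 7095350, 8098120 and 3244767 UMIs. The medians of the mitochondrial share were 1.89%, 1.67% and 1.68%. At most 22 barcodes were shared between any pair of libraries, and 1 baseline barcode was shared by vehicle 1 and EV 1.

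Fewer of the fibroblasts of EV 1 were in the baseline state, although fibroblasts were a larger part of that library. They were 27.6%, 28.1% and 53.1% of the cells that passed the filters, and baseline cells were 19.4%, 19.6% and 22.5%. Among fibroblast cells, defined by the marker sums and filters alone, the baseline share was 70.3% of 2456 in vehicle 1 (95% Wilson interval 68.4 to 72.1), 70.0% of 2619 in vehicle 2 (68.2 to 71.7) and 42.4% of 2644 in EV 1 (40.5 to 44.3). All intervals given here cover counting error only. Most of the cells outside the baseline in EV 1 exceeded the metallothionein limit, with 35.7% of its fibroblasts against 5.29% and 4.20%, and 23.2% against 12.5% and 13% exceeded the Malat1 and Neat1 limit. The interferon limit was exceeded by 0.643% against 6.11% and 6.87%, and the cycling limit by 0.681% against 7.13% and 7.60%. The difference between EV 1 and the vehicle mean, of -27.7 percentage points, changed with the limits and with depth. With Mt1 and Mt2 under 0.5% the difference was -36.4 points. It was -5.16 points when the interferon and cycling sums had to be 0, with shares of 40.9%, 40.8% and 35.7%, and -39.0 points when each cell had first been thinned to 1000 UMIs, with shares of 80.1%, 79.5% and 40.8%.

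**Figure D1:**
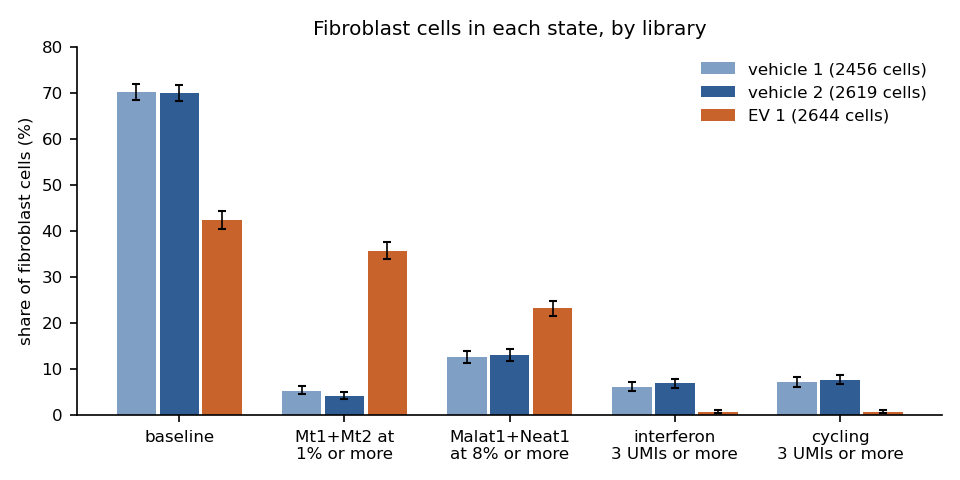
Share of the fibroblast cells of each library (y axis, %) in the baseline state and past each of the 4 limits of the rule (x axis); bars are libraries, error bars are 95% Wilson intervals, and a cell past several limits is counted in each. The baseline bars stand at 70.3% and 70.0% in the vehicle libraries and at 42.4% in EV 1, whose bar for Mt1 and Mt2 reaches 35.7%.

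Cells lay close to each limit. Just inside the metallothionein limit, at 0.9% to 1% of UMIs, were 23, 25 and 81 baseline cells, and just outside, at 1% to 1.1%, were 25, 16 and 65 cells. A fibroblast sum of exactly 2, the lowest allowed, was held by 201, 175 and 286 baseline cells, and 228, 208 and 369 otherwise eligible cells had a sum of 1. An interferon sum of 2 was held by 125, 119 and 27 cells and a cycling sum of 2 by 63, 69 and 7 cells. The state was thus matched by limits and not in level. The median share of Mt1 and Mt2 in the selected cells was 0.202% and 0.192% in the vehicle libraries and 0.458% in EV 1. Mt1 itself stood at 2288, 2188 and 4048 CPM and Mt2 at 362, 351 and 785 CPM.

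Within the baseline state, EV 1 differed from the vehicle libraries by more than these differed from each other. Over the 8448 genes with at least 200 UMIs, the absolute log2 ratio between EV 1 and the mean of the vehicle libraries had a 90th percentile of 0.65, against 0.24 for vehicle 2 over vehicle 1. With the sums brought to equal depth it was 0.68 and 0.69 for EV 1 against each vehicle library and 0.34 between them. A gene was counted as higher or lower when the log2 ratio was at least 1 or at most -1 and EV 1 was beyond both vehicle libraries by a gap wider than the one separating them. By this rule 87 genes (1.03%) were higher and 184 (2.18%) were lower in EV 1. Between the vehicle libraries 1 gene was past the same fold in each direction (0.0118% each way), which were Saa3 and S100a8. Of the 87 higher genes 11, among them Ccn2, Ccn1, Mmp10, Btk, Mettl7b and Adam2, reached 200 UMIs only through EV 1 and would not have been measured at their vehicle level. Rule genes are among these counts, with Mt2 on the higher side and Tex15, Ifit1 and Top2a on the lower. The median log2 ratio of all measured genes was -0.11, so that a ratio near this value is the common level. In bulk sums such as these, fewer cells that express a gene and less RNA of it per cell cannot be told apart.

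**Figure D2:**
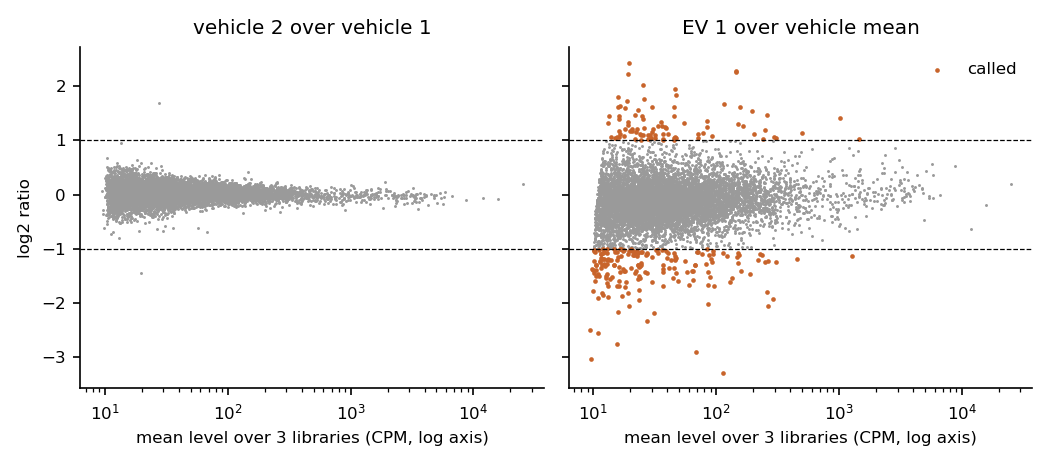
Log2 ratio (y axis) against the mean level over the 3 libraries (x axis, CPM, log axis) for the 8448 measured genes of the baseline cells, for vehicle 2 over vehicle 1 on the left and EV 1 over the vehicle mean on the right; each point is a gene, dashed lines mark 2-fold and orange points are genes past the fold and the vehicle range. The right cloud is broader, with 90th percentiles of the absolute ratio of 0.65 and 0.24.

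Outside the rule, the immediate early genes Fos and Fosb had the lowest ratios. Fos, a subunit of the AP-1 transcription factor on chromosome 12 (85473890 to 85477273, plus strand, GRCm38), was at 167, 159.8 and 16.6 CPM, a log2 ratio of -3.28. Its ratio to the pooled vehicle libraries was 0.102 (exact 95% interval 0.0763 to 0.133). Both vehicle libraries were high and EV 1 was low, without overlap. Fosb, the paralogous AP-1 subunit, was at 101, 90.4 and 12.6 CPM, a log2 ratio of -2.90. Egr1, a zinc finger factor of the same early response, was at 91.5, 96.3 and 44.1 CPM with a log2 ratio of -1.09, which was -0.87, -1.10 and -0.50 in cells with Mt1 and Mt2 under 0.2%, at 0.2% to 0.5% and at 0.5% to 1%. Of 15 measured early genes these 3 were lower (2.18% of all measured genes), 1 was higher (1.03%) and 11 were not called. Their median was -0.30 and 12 lay below 0, as did 5386 of the 8448 measured genes.

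Not all early genes were lower. Ier3, an early gene that affects survival, was the one higher member, at 657, 651 and 1751 CPM and a log2 ratio of 1.42. The AP-1 subunits Jun (453, 490.2 and 395 CPM), Junb (133, 124 and 102 CPM) and Jund (559, 569.5 and 474 CPM) had log2 ratios of -0.25, -0.33 and -0.25, and Fosl1 (118, 133 and 168 CPM) and Fosl2 (64.8, 64.3 and 77.7 CPM) of 0.42 and 0.27. None of these 5 was called. Seen per cell at an equal 1000 UMIs, a Fos UMI was present in 11.6% and 11.5% of the vehicle baseline cells and in 1.22% of those of EV 1 (95% Wilson interval 0.717 to 2.08). Without thinning the shares were 30.0%, 29.5% and 3.66%. The germ cells of the same libraries, at 1000 UMIs each, held Fos in 5.10%, 4.62% and 5.76% of cells, from median depths of 1973.5, 2136 and 1332 UMIs before thinning, so that the share in EV 1 baseline cells was below that of its germ cells.

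The highest ratios were those of Ccn2, Cryab and Hbegf. Ccn2, a secreted matricellular protein that responds to TGF-beta and to mechanical load (chromosome 10, 24595442 to 24598683, plus strand), was at 6.34, 9.51 and 43.1 CPM, the largest log2 ratio of all measured genes at 2.44, with a ratio to the pooled vehicle libraries of 5.37 (4.18 to 6.91). Its paralogue Ccn1 was at 11.4, 10.0 and 35.4 CPM, a log2 ratio of 1.72. Hbegf, a ligand of the EGF receptor, was at 64.7, 63.5 and 307 CPM, a log2 ratio of 2.26, and vehicle libraries were almost equal. Cryab, a small heat shock protein and lens crystallin, was at 54.5, 73.0 and 312 CPM with a log2 ratio of 2.29. Each of these 4 genes was higher in EV 1 than in both vehicle libraries.

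These genes were also detected in more cells of EV 1. At 1000 UMIs, Hbegf was found in 5.12%, 5.90% and 21.8% of baseline cells (1.81%, 1.46% and 3.14% of germ cells), Cryab in 5.36%, 5.35% and 16.9% (1.59%, 1.71% and 4.19%) and Ccn2 in 0.595%, 0.992% and 3.67% (0.191%, 0.0971% and 0.524%). Ccn2 was thus detected in few cells of any library at this depth. Without thinning the Hbegf shares were 18.3%, 18.5% and 44.2%.

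The other genes among the 15 highest ratios were less abundant or of less known function. Btk, a kinase best known from B cells, was at 10.4, 6.54 and 40.1 CPM, Acsbg1, an acyl-CoA synthetase, at 14.4, 11 and 51.5 CPM, Mettl7b at 8.74, 8.64 and 30.2 CPM and Adam2, a sperm surface protein of the ADAM family, at 10.6, 8.77 and 30.2 CPM. Kctd11, an adaptor of a ubiquitin ligase, was at 25.1, 28.3 and 82.3 CPM. Adam2 had a log2 ratio of 1.64 over all baseline cells and of 0.24 in those with Mt1 and Mt2 under 0.2%. The transcripts Wincr1 (24, 26.7 and 90.6 CPM), Mir22hg (14.4, 14.2 and 48.4 CPM), Gm41724 (22.4, 25.1 and 92.1 CPM), 2310039L15Rik (21.6, 13.6 and 54.2 CPM) and 2610528A11Rik (90.3, 96.4 and 286 CPM) had log2 ratios between 1.62 and 1.96. Mir22hg overlaps Tlcd2 on the same strand, so that its reads could be split.

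Other genes outside the rule with low ratios were of varied function. Aldh1a1, which makes retinoic acid, was at 12.7, 13.3 and 2.16 CPM, a log2 ratio of -2.50 that rests on 7 UMIs in EV 1. Ogn (osteoglycin, a small matrix proteoglycan) was at 15.8, 14.8 and 2.47 CPM and Steap4, a metalloreductase, at 22.1, 21.2 and 3.08 CPM. Cp (ceruloplasmin, a copper-carrying ferroxidase) was abundant, at 370.0, 394 and 100.5 CPM and a log2 ratio of -1.93. C3, the central complement component, was at 348, 336 and 98.9 CPM, a log2 ratio of -1.79. Both genes were lower in EV 1 than in each vehicle library. Sema5a, a semaphorin, was at 41.3, 43.5 and 9.25 CPM, Dyrk3, a kinase, at 35.1, 27.5 and 8.01 CPM, Cd38, an ectoenzyme that degrades NAD, at 12.8, 16.1 and 3.70 CPM, Gm15987 at 37.5, 37.9 and 7.40 CPM and Gm20033 at 21.3, 21.6 and 4.62 CPM. With cells thinned to 1000 UMIs the log2 ratio of Cd38 was -0.26. Cd38 overlaps Gm16014 on the same strand. Tex15, at 15.1, 12.3 and 1.54 CPM, belongs to the germ sum of the rule and moved with the share of cells holding a germ UMI.

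**Figure D3:**
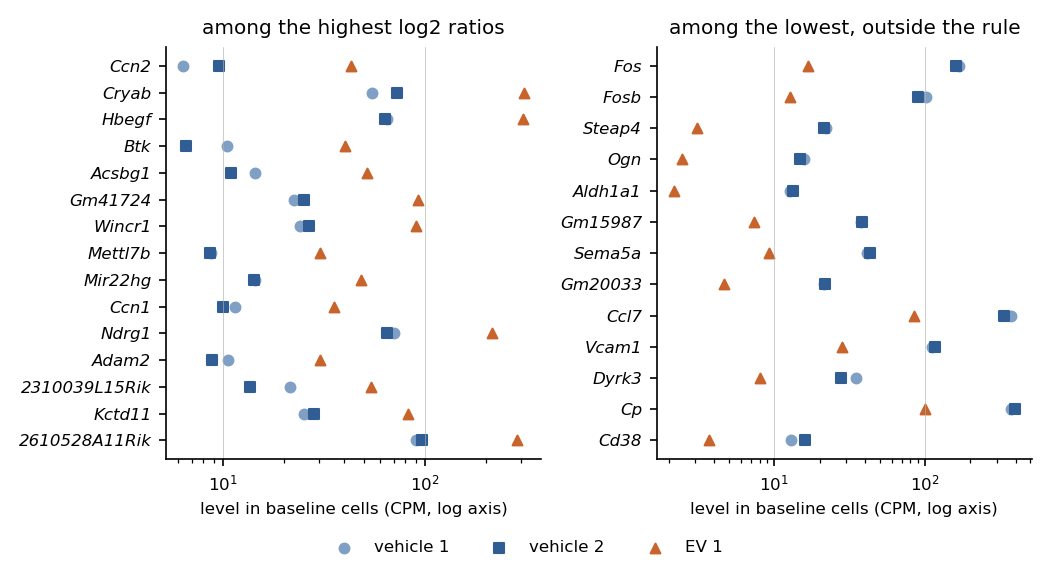
Level in the summed baseline cells (x axis, CPM, log axis) of genes among those with the highest and, outside the rule, the lowest log2 ratios (y axis), with circles for vehicle 1, squares for vehicle 2 and triangles for EV 1. The triangles stand apart from both vehicle symbols for each gene drawn, as for Hbegf at 64.7, 63.5 and 307 CPM and Fos at 167, 159.8 and 16.6 CPM.

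Glycolysis and hypoxia genes lay above 0 with 1 exception. Of 18 measured genes, 4 were higher against a background of 1.03%, none was lower, and the median log2 ratio was 0.44. Above 0 lay 17 of them, as did 3062 of the 8448 measured genes. Ndrg1, a hypoxia and differentiation gene, was at 70.3, 64.8 and 214 CPM, a log2 ratio of 1.67. Hk2 (hexokinase, the entry step of glycolysis) was at 98.5, 102 and 247 CPM, Slc2a1 (the glucose transporter GLUT1) at 144, 152 and 319.6 CPM and Hilpda, a lipid droplet protein induced by hypoxia, at 227, 222 and 466 CPM, with log2 ratios of 1.30, 1.11 and 1.06. In all 4 genes the vehicle libraries lay close together and EV 1 above them.

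Genes of the list that were not called included the hypoxia genes Bnip3 (494, 469 and 863 CPM), Ankrd37 (169.8, 176 and 302 CPM) and Adm (139, 141 and 211 CPM), with log2 ratios of 0.84, 0.80 and 0.60, and Vegfa (83.4, 84.7 and 121 CPM) with 0.52. The abundant enzymes of lower glycolysis were closer to level. Gapdh had a log2 ratio of 0.13, Pgk1 of 0.12, Pgam1 of 0.08 and Pkm of 0.02, and Pfkl, at -0.25, was the only measured member below 0. The separate list of collagen-processing genes went both ways, with 7 of 13 measured genes above 0 and 6 below. Its log2 ratios ran from -0.83 to 0.99 with a median of 0.08, and none was called. Among those above 0 were P4ha1 at 273, 296 and 440.1 CPM (0.63) and P4ha2 at 173, 177 and 267 CPM (0.61). So were Plod2 at 208, 232 and 437 CPM (0.99) and Lox at 88.4, 95.8 and 138 CPM (0.59).

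Promoters of the called hypoxia genes are shown because 17 of 18 list members lay above 0, with the core of the hypoxia response element, ACGTG or its reverse complement CACGT, in capitals. The windows run from 250 bases before to 50 bases after the start, 5′ to 3′ along the gene (RefSeq, GRCm38.p6). Slc2a1 lies on the plus strand at chr4:119108495-119108794, Hk2 on the minus strand at chr6:82774405-82774704 and Hilpda on the plus strand at chr6:29272376-29272675.
Slc2a1: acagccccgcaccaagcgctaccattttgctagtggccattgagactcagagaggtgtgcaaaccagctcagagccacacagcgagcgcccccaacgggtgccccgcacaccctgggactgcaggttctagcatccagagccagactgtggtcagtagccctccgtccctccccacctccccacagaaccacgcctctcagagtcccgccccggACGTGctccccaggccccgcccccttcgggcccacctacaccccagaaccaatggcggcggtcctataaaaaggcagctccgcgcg
Hk2: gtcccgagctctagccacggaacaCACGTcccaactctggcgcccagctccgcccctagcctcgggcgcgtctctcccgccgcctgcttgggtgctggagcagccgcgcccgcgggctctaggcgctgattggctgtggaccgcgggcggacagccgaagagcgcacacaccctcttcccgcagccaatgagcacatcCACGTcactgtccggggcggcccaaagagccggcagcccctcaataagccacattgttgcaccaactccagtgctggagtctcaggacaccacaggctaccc
Hilpda: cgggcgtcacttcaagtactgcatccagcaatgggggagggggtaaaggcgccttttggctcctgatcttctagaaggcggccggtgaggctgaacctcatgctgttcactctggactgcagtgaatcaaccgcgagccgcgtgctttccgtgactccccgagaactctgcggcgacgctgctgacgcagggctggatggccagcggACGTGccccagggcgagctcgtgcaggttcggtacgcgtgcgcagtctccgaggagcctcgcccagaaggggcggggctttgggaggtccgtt

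The core was found once in Slc2a1, 2 times in Hk2 and once in Hilpda, whose other start in the table lacked it. No entry matched Ndrg1. Of the 17 measured list genes with an entry, 11 held the core in at least 1 window, among them Bnip3, Vegfa and Ldha, while Adm, Eno1 and Pfkp, for example, did not. Of the 27025 genes with any window, 21.8% held it in at least 1 window, and 19.6% of the 32851 single windows did. The letters are also part of the E-box CACGTG, and a match is a feature of the sequence only.

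Few stress genes outside the rule were called. Hmox1 (heme oxygenase) was at 112, 126 and 345 CPM and Gclm, a subunit of the enzyme that starts glutathione synthesis, at 59.3, 57.3 and 138 CPM, with log2 ratios of 1.54 and 1.25. They were 2 higher genes of 13 measured Nrf2 targets, against 1.03% of all measured genes, and the list median was 0.03. Nqo1 (11, 11.4 and 11.4 CPM) and Srxn1 (31.7, 29.8 and 29.3 CPM), which belong to the same pathway, had log2 ratios of 0.04 and -0.07. Of 9 measured heat shock genes Cryab alone was higher (1.03% of all measured genes) and the median was -0.32, with Hspa8 at 929.9, 936 and 709 CPM and Hspd1 at 408, 408 and 305 CPM. None of 9 genes of the integrated stress response (median -0.03) and none of 14 chaperones of the endoplasmic reticulum (median -0.09) was called. The 3 measured zinc genes outside the rule, the transporters Slc39a10 and Slc39a14 and the metal-sensing factor Mtf1, had log2 ratios of 0.29, 0.28 and -0.18.

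Collagens did not pass the fold, whereas single genes of the other matrix did. None of 14 measured collagens was called, and their median was -0.17. Col3a1 was at 170.1, 182 and 108 CPM (-0.70), Col5a2 at 59.3, 61.1 and 64.7 CPM (0.11), Col4a1 at 72.4, 79.4 and 75.8 CPM and Col12a1 at 22.1, 22.5 and 29.0 CPM (0.38). Col1a2, a rule gene, was at 224, 239 and 119 CPM. Of 16 other matrix genes Thbs1 (thrombospondin, at 13, 10.7 and 25.9 CPM) was higher and Mgp, an inhibitor of calcification, at 49.9, 43.6 and 17.9 CPM, was lower, with log2 ratios of 1.13 and -1.38 and a list median of -0.38. The list includes the rule genes Sparc and Dcn, and over all measured genes 1.03% were higher and 2.18% lower. The log2 ratio of Thbs1 was under the fold in 3 of 13 alternatives, with 0.87 as the lowest and 1.00 without vehicle 2. In cells with Mt1 and Mt2 at 0.2% to 0.5% it was 0.51. Spp1 (osteopontin) was among the most abundant transcripts, at 13756, 13250.1 and 8729.8 CPM, with a log2 ratio of -0.63. Bgn (428, 439 and 279 CPM), Vcan (180.1, 208 and 134 CPM) and Nid1 (291, 300.3 and 229 CPM) were not called either.

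Proteases and their inhibitors were found on both sides. Of 14 measured genes 3 were higher and 3 lower, beside 1.03% and 2.18% of all measured genes, with a median of -0.10. The count of higher genes includes Mmp10, which was measured only because it was high in EV 1, and nothing is read from that count. Mmp10, a stromelysin that reached the minimum only through EV 1, was at 9.58, 9.14 and 28.7 CPM, Plau (urokinase) at 9.72, 12.8 and 25.6 CPM and its receptor Plaur at 23.4, 19.5 and 47.8 CPM. The log2 ratio of Plaur was 0.81 with cells thinned to 1000 UMIs, and that of Plau was 1.00, just under 2-fold, without vehicle 1. Lower were Timp3, an inhibitor of metalloproteinases, at 143, 134 and 65.6 CPM, Serpine2, an inhibitor of serine proteases, at 75, 71.9 and 27.1 CPM, and Mmp19 at 26.2, 34.6 and 14.5 CPM. The log2 ratio of Mmp19 was -1.06 and was under 2-fold in 6 of 13 alternatives, with -0.84 without vehicle 2. Over the 13 it ran from -1.64 to -0.28. Timp1 (386, 406 and 679.6 CPM) had a log2 ratio of 0.78 and did not pass the fold.

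Among 15 measured contractile and TGF-beta response genes, Ccn2, Ccn1 and Smad7 were higher (1.03% of all measured genes) and Tgfbi was lower (2.18%). Smad7, the inhibitory SMAD that TGF-beta induces, was at 22.7, 23.0 and 54.9 CPM, and Tgfbi, a matrix protein induced by TGF-beta, at 47.5, 45.6 and 18.8 CPM, with log2 ratios of 1.26 and -1.30. The contractile genes Tpm1 (363, 391 and 409.6 CPM), Cald1 (649, 713 and 731 CPM) and Vcl (79.6, 82.4 and 77.7 CPM) had ratios of 0.12, 0.10 and -0.06. The list as a whole had a median of 0.10. Its count of higher genes includes Ccn2 and Ccn1, which were measured only because they were high in EV 1, and nothing is read from it.

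Most growth factors with which feeders support germ cells did not pass the fold. Of 13 measured niche growth factors Csf1, a factor of macrophages and of spermatogonial stem cells, was lower at 115, 112 and 54.9 CPM, a log2 ratio of -1.05, and none was higher, beside 2.18% lower and 1.03% higher over all measured genes. The ratio of Csf1 was -0.99 with TMM factors and -0.97 with DESeq2 size factors. Gdnf was low in every library, at 16.9, 16.4 and 22.8 CPM, with a log2 ratio of 0.46. Fgf2 was at 12.5, 10.0 and 9.55 CPM (-0.22), Kitl, the ligand of KIT, at 85.4, 92.1 and 92.8 CPM (0.06), Lif at 39.7, 36.8 and 62.6 CPM (0.71), Cxcl12 at 16.6, 18.4 and 15.7 CPM (-0.15) and Igf1 at 24.4, 27.3 and 21.0 CPM (-0.30).

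Of 9 measured chemokines and cytokines 3 were lower and 1 was higher (2.18% and 1.03% over all measured genes), with a median of -0.23. Ccl7, which attracts monocytes, was at 369.8, 332 and 84.4 CPM, a log2 ratio of -2.05 and a ratio to the pooled vehicle libraries of 0.242 (0.213 to 0.273). Ccl9 was at 32.6, 29.0 and 8.94 CPM and Ccl5 at 34.5, 24.5 and 9.86 CPM, log2 ratios of -1.76 and -1.56, although Ccl5 also differed between the vehicle libraries. Cxcl1, a neutrophil chemokine, was higher at 192, 165 and 362 CPM, a log2 ratio of 1.02 that was 0.92 without vehicle 2. Ccl2, the most abundant of them, was at 1639, 1552 and 1034 CPM and was not called.

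Of 13 measured genes of the NF-kB response 1 was higher and 2 were lower, where 1.03% and 2.18% of all measured genes were. Vcam1, an adhesion molecule for leukocytes, was at 112, 116 and 28.0 CPM, a log2 ratio of -2.01, and C3 was lower as given above. Ptgs2 (cyclooxygenase) was higher, at 27.3, 27.0 and 63.8 CPM and a log2 ratio of 1.23. The other 10 were not called, with Nfkbia at 382, 419 and 348 CPM, Sod2 at 192, 179.8 and 113 CPM and Lcn2 at 370.2, 324 and 246 CPM, and the median was -0.33. At 1000 UMIs, Vcam1 was found in 9.76%, 9.59% and 2.92% of baseline cells (0.595%, 0.583% and 0% of germ cells) and C3 in 28.2%, 26.4% and 10.5% (3.91%, 2.87% and 4.71%).

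Interferon-induced genes that the rule had not used lay below 0 as a group. The rule had removed cells with 3 or more UMIs of its own 4 interferon genes from every library, but within the remaining cells the mean of that sum was still 0.346 and 0.351 in the vehicle libraries and 0.121 in EV 1. Of 14 measured genes outside the rule 4 were lower, where 2.18% of all measured genes were, and all 14 lay below 0, as did 5386 of the 8448 measured genes. Their median was -0.63. Among the lower genes Gbp2, a guanylate-binding protein, was at 17.5, 15.3 and 5.55 CPM, Rtp4 at 27.1, 32.4 and 11.7 CPM and Bst2 (tetherin) at 269.9, 272 and 118 CPM, with log2 ratios of -1.53, -1.33 and -1.20. Gbp2 had -0.57 in cells with Mt1 and Mt2 under 0.2%. Rtp4 overlaps Gm45338 on the same strand. Irf9 (19.0, 20.9 and 17.6 CPM), Stat2 (23.3, 22.5 and 19.1 CPM) and Usp18 (13.4, 14.6 and 11.7 CPM) had ratios of -0.18, -0.25 and -0.24. When the interferon and cycling sums had to be 0 in each cell, Bst2 had a log2 ratio of -1.20 and Gbp2 of -1.45, and the list median was -0.62.

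**Figure D4:**
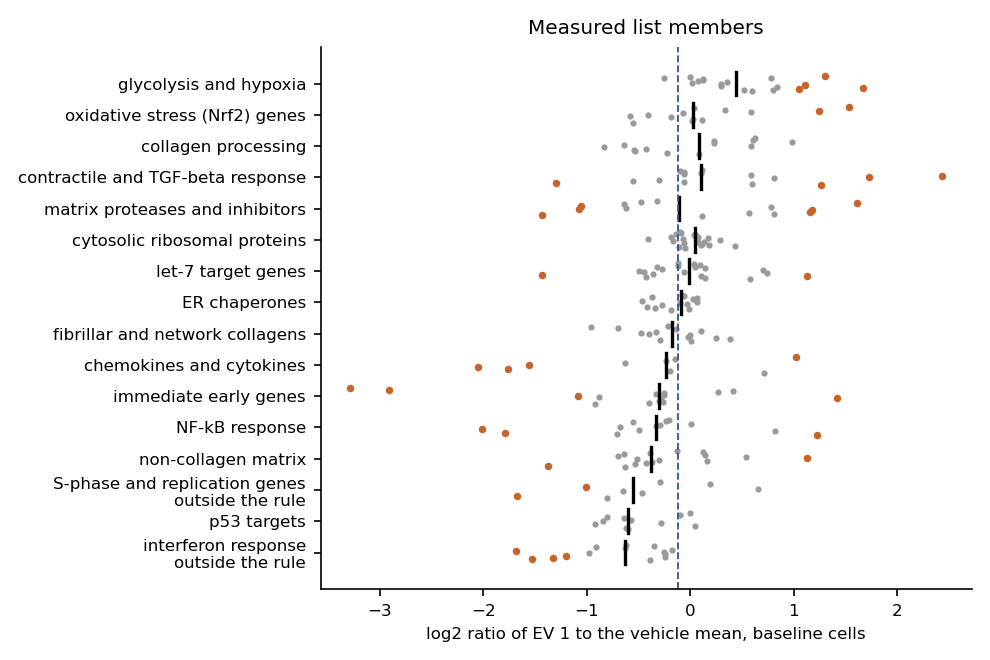
Log2 ratio of EV 1 over the mean of both vehicle libraries (x axis) for the measured members of 16 gene lists (y axis) in baseline cells; points are genes, orange points passed the fold and the vehicle range, black bars are list medians and the dashed line is the median of all measured genes, -0.11. Glycolysis and hypoxia has the highest median of the lists drawn, 0.44, and the interferon response outside the rule the lowest, -0.63.

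Of 8 measured S-phase genes Hells, a chromatin remodeller, was lower at 53.3, 42.0 and 14.8 CPM, as was Tyms (thymidylate synthase) at 20.6, 19.5 and 9.86 CPM, beside 2.18% of all measured genes, and the median was -0.56. Hells was far higher in germ cells, at 1431, 1424 and 1073 CPM. At the germ share measured above, RNA carried over from them would give 50.3, 40.2 and 20.4 CPM, about the level found, so that nothing is read from Hells about the fibroblasts. The ratio of Tyms, -1.01, was at the limit, was under 2-fold in 8 of 13 alternatives and was 0.16 in cells with Mt1 and Mt2 under 0.2%. Of 16 mitotic genes outside the rule only Cdk1 was measured, at 22.3, 23.3 and 20.0 CPM and not called. The growth arrest genes Gas1 (233, 249.8 and 87.5 CPM) and Gas6 (57.4, 55.8 and 19.4 CPM, a ligand of AXL family receptors) were lower, with log2 ratios of -1.46 and -1.53, 2 of 12 measured quiescence and cyclin genes (2.18% of all genes lower). Ccnd1 (1019, 1080.1 and 872 CPM), Ccnd2 (343, 378 and 589 CPM) and the inhibitor Cdkn2b (63.4, 65.1 and 65.6 CPM) were not called.

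Targets of p53 had a median of -0.60 over 11 measured genes, of which none was called. Cdkn1a, the cell cycle inhibitor p21, was abundant and level at 985, 1098 and 1044 CPM, a ratio of 0.00, and Mdm2 was at 213, 207 and 196 CPM, while Ccng1 (176, 196 and 107 CPM) and Bax (352, 331 and 219 CPM) had ratios of -0.80 and -0.64. Of 24 adhesion genes and receptors Vcam1 and the PDGF receptor Pdgfrb (13.2, 13.2 and 5.24 CPM) were lower (2.18% of all measured genes) and none was higher, with a median of -0.17. Ly6a (849, 870.0 and 484 CPM) and Fgfr1 (163, 177 and 111 CPM) were not called. Of the placental prolactin family, which proliferating fibroblasts express, Prl2c3 was higher at 22.8, 23.0 and 49.3 CPM and Prl2c2 stood at 448, 444 and 513 CPM, 1 called of 2 measured. These 2 genes belong to a family of near-identical copies, whose reads the counting could split.

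Over all measured genes 3.21% were called in either direction, so that little is read from a short list without a called member. Such a list could still have a median away from that of all genes, as the p53 targets had at -0.60. None of 22 cytosolic ribosomal protein genes (median 0.04), 13 mitochondrially encoded genes (median -0.19), 15 vesicle and lysosome genes (median -0.19), 13 collagen-processing genes (median 0.08) and 6 genes of cholesterol synthesis (median -0.02) was called. The tetraspanins Cd9 (219, 216 and 248 CPM), Cd63 (2326, 2304 and 1939 CPM) and Cd81 (1252, 1220.3 and 1053 CPM), which also mark vesicles, had ratios of 0.19, -0.26 and -0.23.

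The study centres on let-7b and let-7c as vesicle cargo, so their mature forms are shown, with the seed (bases 2 to 8), which pairs with target transcripts, in capitals (RefSeq, GRCm38.p6).
mmu-let-7b-5p: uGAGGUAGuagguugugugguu
mmu-let-7c-5p: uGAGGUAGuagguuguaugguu

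Both have the same seed. A list of 36 known or predicted let-7 targets, 20 of them measured in baseline fibroblasts, had a median log2 ratio of -0.01, with 10 genes on each side of 0. Of the 8448 measured genes 3062 lay above 0 and 5386 below. Fas, the death receptor, was lower at 116, 102 and 40.4 CPM, a log2 ratio of -1.43, and Thbs1 was higher as given above. The remaining 18 were not called, with Hmga2, a chromatin protein abundant in these cells, at 1947, 2043 and 1844 CPM (-0.11), Ccnd1 at -0.27, Igf2bp1 at 14.9, 15.8 and 16.3 CPM (0.09), Igf2bp2 at 83.0, 87.6 and 78.6 CPM (-0.12) and Nras at 52.1, 47.0 and 54.9 CPM (0.15). The called members were 1 of 20 in each direction, against 1.03% of all measured genes higher and 2.18% lower, counts of 1 from which nothing is read. The levels of the miRNAs themselves were not measured in these cells.

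Because the baseline cells of EV 1 held more Mt1 and Mt2, the comparison was repeated within 3 ranges of that share. In EV 1 220 cells (19.6%) were under 0.2%, 391 (34.9%) at 0.2% to 0.5% and 510 (45.5%) at 0.5% to 1%, against 49.6%, 35.1% and 15.3% of the cells of vehicle 1 and 51.8%, 33.3% and 14.9% of those of vehicle 2. Fos was at 203, 187 and 23.1 CPM in the lowest range, 152, 157 and 16.9 CPM in the middle and 88.8, 66.2 and 13.8 CPM in the highest, log2 ratios of -3.02, -3.15 and -2.46. Ccn2 had ratios of 2.79, 2.18 and 2.44, Cryab of 2.63, 2.24 and 2.01, and Hbegf of 2.08, 2.12 and 2.14. All 4 genes were past 2-fold in each range. They had been chosen for their ratios in these same cells, so that nothing is read from this.

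Other genes had smaller ratios in the highest range. Hk2 had log2 ratios of 1.44, 1.15 and 1.11, Hmox1 of 1.58, 1.15 and 1.01, Ier3 of 1.55, 1.21 and 0.82 and Hilpda of 1.29, 0.85 and 0.38. On the lower side the order of the ranges varied, and Vcam1 had ratios of -1.72, -2.11 and -1.82, Ccl7 of -1.73, -2.23 and -1.73 and C3 of -2.23, -1.63 and -1.50. With the cells limited to Mt1 and Mt2 under 0.2%, 76 genes were higher and 193 lower of 6014 genes with 200 UMIs in these cells (1.26% and 3.21%). Over the full set of 8448 genes, which adds genes of few UMIs in a range, 182, 99 and 70 were higher and 352, 259 and 179 lower in the lowest, middle and highest range. The lowest range held 856, 949 and 220 of the same cells from which the named genes were chosen. The part of metallothionein in these ratios was not tested.

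**Figure D5:**
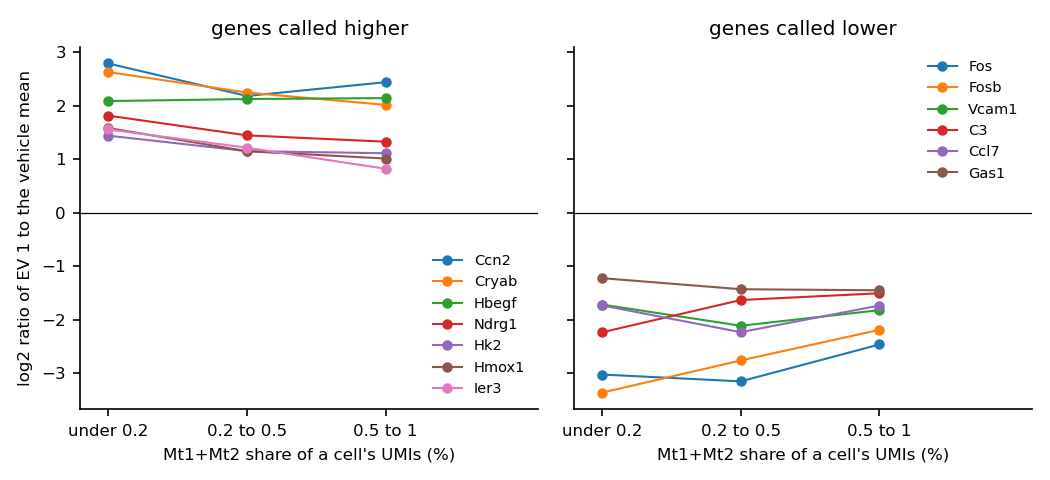
Log2 ratio of EV 1 over the mean of both vehicle libraries (y axis) in baseline cells split by the share of their UMIs from Mt1 and Mt2 (x axis, %), for 7 genes called higher on the left and 6 called lower on the right; each line is a gene. Every line keeps its side of 0, with Fos at -3.02, -3.15 and -2.46.

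Baseline cells were not uniform among themselves. At 1000 UMIs per cell, the ratio of variance to mean over cells, which is 1 for pure counting noise, was highest in the mean of the vehicle libraries for Malat1 (14.9, 13.5 and 16.5 in the 3 libraries), a rule gene, followed by Spp1 (11.8, 10.2 and 10.3). Saa3, an acute phase protein, had 1.39, 16.8 and 10.0 with only 0.0119, 0.0391 and 0.0414 UMIs per cell, so that a few cells carried it in vehicle 2 and EV 1. Fth1 (ferritin heavy chain) had 8.44, 8.25 and 9.05 and S100a6 4.91, 4.30 and 5.68.

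The secreted defence proteins Slpi (4.97, 4.29 and 3.07), Lcn2 (3.52, 4.22 and 3.15) and Wfdc18 (5.35, 2.95 and 1.70) and the chemokines Ccl2 (3.59, 3.2 and 4.10) and Cxcl1 (3.36, 2.47 and 3.96) also varied more than counting noise. So did Ctsl (3.93, 3.55 and 2.84), a lysosomal protease, mt-Co1 (2.75, 2.90 and 3.88) and mt-Co2 (2.97, 2.76 and 3.48). Tex14, a germ cell gene, had 6.54, 1.31 and 4.47 at 0.0708, 0.0436 and 0.0687 UMIs per cell, and S100a8, a granulocyte protein, 4.71, 1.18 and 1.61. Spp1 was at 13.4 and 13.1 UMIs per cell in the vehicle libraries and at 8.95 in EV 1, with about the same ratio of variance to mean in all.

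Compared with other states, the baseline cells differed in genes that the rule had not used. Cells past the metallothionein limit had more of Mt4, a further metallothionein, with log2 differences from the baseline cells of the same library of 2.19, 1.59 and 2.40, and of Fabp4, a fatty acid carrier (1.46, 1.28 and 1.1), Bst1 (0.91, 1.16 and 0.92), Cxcl1 (0.83, 1.11 and 1.09) and Slpi (0.74, 1.29 and 0.80). They had less of Tafa1 (-1.42, -1.13 and -1.15), Mex3a (-1.12, -1.78 and -1.30), Slc35d1 (-1.38, -1.05 and -1.07) and Saa3 (-1.05, -1.12 and -0.96). Interferon-positive cells had more of Ifi44 (2.63, 2.88 and 2.53), Oasl2 (2.10, 2.33 and 4.03), Usp18 (2.45, 2.54 and 2.09) and Iigp1 (2.10, 1.88 and 1.99), but EV 1 held 17 such cells. Cycling cells had more of Hmmr, Birc5, Prc1, Esco2 and Cenpe, with differences from 4.56 to 8.29, and EV 1 held 18 of them. These genes come from the same cells that the rule split and are given as a description.

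The EV difference of the baseline cells was set beside that of the other fibroblasts of the same libraries, which share the vehicle and EV cultures. In cells past the metallothionein limit, Hbegf had a log2 ratio of 1.87, Cryab of 1.99, Ndrg1 of 1.03, Cp of -1.50 and Ccl7 of -1.47, and all 5 were called there. Over the 2665 genes measured in these cells, 17 were higher and 20 lower. Not called in these cells were Hk2 (0.76), Hmox1 (0.88), Ier3 (0.75), Hilpda (0.36), Slc2a1 (0.39), C3 (-0.99) and Gas1 (-1.25). In cells past the Malat1 and Neat1 limit, where 41 genes were higher and 37 lower of 3090 measured, Gas1 (-0.79) was not called. Called there were Hbegf with 2.54, Ndrg1 1.64, Hk2 1.46, Hmox1 1.62, Fosb -2.51, Vcam1 -1.94, C3 -1.67 and Cp -1.57. The values of the baseline cells were 2.26, 1.67, 1.30, 1.54, -2.90, -2.01, -1.79 and -1.93 for the 8 called genes in the same order. In the 242 germ cells of EV 1, Cryab (2.11), Ndrg1 (1.70), Hk2 (1.80), Slc2a1 (1.97), Hilpda (1.5) and Cxcl1 (2.50) were also called higher against vehicle germ cells, from 23, 27, 97, 74, 36 and 23 UMIs. Calls were more frequent in germ cells, with 499 higher and 462 lower of 10083 measured genes, against 87 and 184 of 8448 in baseline cells. Not called there were Hbegf (0.59), Hmox1 (-0.04), Gclm (0.28), Ier3 (0.76), Fos (0.35), C3 (0.22) and Cp (-0.08). Germ barcodes also held the fibroblast gene Dcn, at 95.3, 76.0 and 114 CPM, and the part of fibroblast RNA in their ratios was not tested. No difference between the states or cell classes was tested.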

How the data were processed

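Single-cell libraries of 2 vehicle cultures and 1 EV culture were used. The deposited matrices hold UMI counts per gene and barcode, which the authors made with Cell Ranger 7.0.1 on mm10 with the GENCODE vM23 annotation (32285 genes), without normalization. Coordinates come from an annotation of the same build that held 32158 of these identifiers, and promoters and miRNAs from RefSeq. The limits of the study on genes per cell (above 400, below 4000) and on mitochondrial UMIs (below 10%) are part of the rule. Doublets were not removed in the main analysis. An alternative left out the filtered cells with the highest doublet scores of the Scrublet method (scanpy 1.11.5). Their number was set beforehand at 0.8% per 1000 cells, or 633, 697 and 198 cells of vehicle 1, vehicle 2 and EV 1.

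Counts of the baseline cells were summed per library and divided by the library total to give CPM. Log2 ratios set EV 1 against the mean of the vehicle libraries, with 0.5 UMI added, for genes with at least 200 UMIs in the 3 libraries. A gene was called when the log2 ratio was 1 or more in size and EV 1 was beyond both vehicle libraries by a gap wider than the one separating them. With 1 EV library no p-value was computed. Intervals are exact (counts and ratios) or Wilson (shares), at 95%, and a count of 0 was given a floor of 3 counts. For shares of cells with a UMI, cells were thinned to 1000 UMIs, which left out 46, 19 and 59 baseline cells.

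The vehicle libraries differed beyond sampling noise (chi-square per degree of freedom 1.89) and were kept as 2 samples. The members and gene lists were chosen with earlier results of these data known. Genes named are those of the rule, of the lists, the 15 highest and 15 lowest ratios, the 15 most variable genes and the 5 leading genes per other state and direction, some of which are not reported here. The steps were tested on simulated data. Alternatives included TMM (edgeR 4.0.16) and DESeq2 1.42.0 size factors, in R 4.3.3, and Python 3.11.15 with numpy 2.4.6, scipy 1.17.1 and pandas 2.3.3 was used otherwise.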

Additional observations from a re-analysis of the deposited data

Results flagged for a closer look

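Timp3 had opposite ratios in 2 cell classes of the same libraries. In baseline fibroblasts the log2 ratio of EV 1 over the mean of the vehicle libraries was -1.075. In germ cells it was 1.42, from 16.8, 14 and 40.0 CPM and only 14 UMIs in EV 1. The difference between the classes was not tested.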

How the results depend on the processing

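Of 16 alternatives, 13 give a ratio per gene, and under these the 67 called genes followed here, those chosen as named genes out of 271 called, kept their direction except 4. Tyms had a log2 ratio of 0.16 with Mt1 and Mt2 under 0.2%. Tex15 had 1.06 in cells without a germ marker UMI, and Ifit1 and Top2a had 0.58 with the interferon and cycling sums at 0, where their UMIs are removed by construction and the values reflect only the added 0.5 UMI. The 0.2% and germ UMI settings were chosen after seeing the data. Of the 67, 50 were past 2-fold in their direction in each of the 13, and the medians of 11 of 31 lists changed sign in at least 1. The count of higher genes was 236, 22 and 2831 with a minimum of 50 UMIs, 1000 UMIs and none, or 2.02%, 0.714% and 11.7% of 11671, 3082 and 24164 measured, and that of lower genes 481, 47 and 1575, or 4.12%, 1.52% and 6.52%, so that higher genes outnumbered lower ones without a minimum. Thinning to 1000 UMIs gave 26 higher and 57 lower of 2531 measured, and sums at 0 gave 117 lower of 6662. Leaving out a vehicle library gave 84 to 90 higher and 191 to 200 lower. The 90th percentile of the absolute ratio was 0.64 with TMM factors, DESeq2 size factors or 2 UMIs added, 0.66 to 0.67 without 1 vehicle library, 0.67 as a mean over cells, 0.82, 0.60 and 1.76 for the 3 minimums, 0.66 without doublets, 0.68 and 0.75 with Mt1 and Mt2 under 0.5% and 0.2%, 0.69 with a fibroblast sum of at least 5, 0.63 with sums at 0, 0.67 thinned and 0.65 without germ UMIs. The baseline share differed by -29.0 points without doublets, -36.4 with Mt1 and Mt2 under 0.5%, -31.8 with a fibroblast sum of at least 5, -5.16 with sums at 0 and -39.0 thinned. The cause of these shifts was not tested. Leaving out EV 1, the only EV library analysed here for expression, was not possible. No paired analysis was possible because counts were read from 1 EV library and replicate numbers share no stated source. Depth limits genes under 200 UMIs, and the shallower EV 1 cells limit comparisons per cell.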
